A study of Mus musculus with 6 samples.

Results

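The genes described here are the growth factor Hgf, its receptor Met, 3 secreted or membrane serine proteases that can activate the factor (St14, Plau and Plat) and 2 protease inhibitors (Spint1 and Spint2). They were taken by gene symbol, 7 of the 56884 features measured, and read in all 6 single-cell libraries of the study, by cell type. The lung libraries came from Bdnf lox/lox control mice, Bdnf iPCKO mice, Hgf lox/lox control mice and Hgf iPCKO mice at postnatal day 21 (P21), and the cerebral cortex libraries came from mice at P12 that were Nodal lox/lox control or Nodal iPCKO. In the iPCKO mice the BAC transgene Pdgfrb-CreERT2, which is active in mural cells that express Pdgfrb, deletes the floxed gene after tamoxifen. The control mice are labelled as floxed with no transgene named. The labels give the same treatment for all 6 libraries, 50 μg tamoxifen in each of 3 injections from P1 to P3, and do not say separately whether the controls were injected. Each condition is 1 library from pooled cells of 2 mice, described as littermates for the lung, so no difference has a replicate and no p-value is given. The intervals in parentheses are 95% intervals that cover counting error only.

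HGF is made as an inactive single chain, mainly by mesenchymal cells, and binds the receptor tyrosine kinase MET, which is known above all from epithelial cells. Cleavage at 1 peptide bond turns the precursor into the active factor. Matriptase (St14), the urokinase-type plasminogen activator (Plau) and the tissue-type plasminogen activator (Plat) are among the proteases reported to do this, while the membrane inhibitors HAI-1 (Spint1) and HAI-2 (Spint2) block matriptase and related enzymes. HGF itself has the fold of a serine protease without the activity, and the lung epithelium is a classical site of its action.

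The stretch of coding sequence around the activation cleavage of each protein is printed for the ligand and its 3 activators. In Hgf it is the site on which the activators act, and in the 3 activators it is their own activation site. Capitals mark the codon whose product precedes the cut bond, each sequence runs 5′ to 3′ on the coding strand, and positions are those of GRCm39. The codon reads arginine in Hgf, St14 and Plat and lysine in Plau.
Hgf, chr5:16816841-16816867, plus strand: acaaaacaactgCGGgttgtaaatggc
St14, chr9:31006971-31006997, minus strand: accaaacaggctCGCgtggttggtggc
Plau, chr14:20889459-20889485, plus strand: aggccccgctttAAGattgttggggga
Plat, chr8:23268145-23268171, plus strand: cggcctcagtttAGAattaaaggagga

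The second set is the coding stretch at the place of the catalytic serine, with the codon of that place in capitals. Each of these stretches is spliced from 2 neighbouring exons. It is shown because this place sets the factor apart from its activators, and the codon reads serine in St14, Plau and Plat and tyrosine in Hgf.
Hgf, codon from chromosome 5 position 16823830: tgtgagggagatTATggtggcccactc
St14, codon from chromosome 9 position 31001315: tgccagggtgacTCTggtggccccttg
Plau, codon from chromosome 14 position 20892348: tgcaagggcgatTCTggaggaccgctt
Plat, codon from chromosome 8 position 23271970: tgccagggtgacTCGggaggccctctg

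The genes lie apart in the genome, Hgf at chr5:16758041-16828178, Met at chr6:17463749-17573979, St14 at chr9:31000698-31043218, Spint1 at chr2:119067511-119080163, Spint2 at chr7:28955747-28981493, Plau at chr14:20886722-20893453 and Plat at chr8:23247709-23272871. Hgf overlaps 2 predicted genes of the same strand, Gm43489 with 7 to 41 and Gm42975 with 0 to 6 unique molecular identifiers (UMIs, the count of captured transcripts) in a library, against 126 to 829 of Hgf in the same cells. Reads of the 3′ ends do not show whether floxed exons were deleted.

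The libraries held 33889545 to 186701379 UMIs, and 3237 to 24311 barcodes passed the minimum of 1500 UMIs, or 700 in the Hgf pair, at medians of 2841 to 7792 UMIs. Markers placed 82.2 to 92.6% of them in a cell type, written with "-like" because the names rest on markers alone. The lungs had been depleted of CD45 and Ter119 positive cells, which leaves few immune cells, and meninges and myelin had been removed from the cortex. A pair of libraries shared 21 to 457 barcodes, where independent draws would share 17.8 to 457, and the numbers exceeded those of independent draws by the widest margins in the Hgf control with Nodal iPCKO (108 against 80.2), the Hgf iPCKO with Nodal iPCKO (116 against 88.6) and the Bdnf iPCKO with the Hgf control (432 against 389) libraries. All levels are UMIs of the gene in 1000000 UMIs of the same cells (CPM) and are compared within a gene only. A member was counted as higher or lower in a mutant when it lay past 1.5-fold with at least 20 UMIs in the 2 libraries together.

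In the lung the ligand and the receptor were found in different cells. In both control lungs Hgf had its highest level in basophil or mast-like cells, then in pericyte-like cells, matrix fibroblast-like cells and general capillary (gCap)-like endothelial cells, while Met was highest in alveolar type 2 (AT2)-like cells. St14, Spint1 and Spint2 were epithelial, Plau was found in lymphatic and aerocyte (aCap)-like endothelial cells, and Plat in arterial-like endothelial cells and myofibroblast-like cells.

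**Figure D1:**
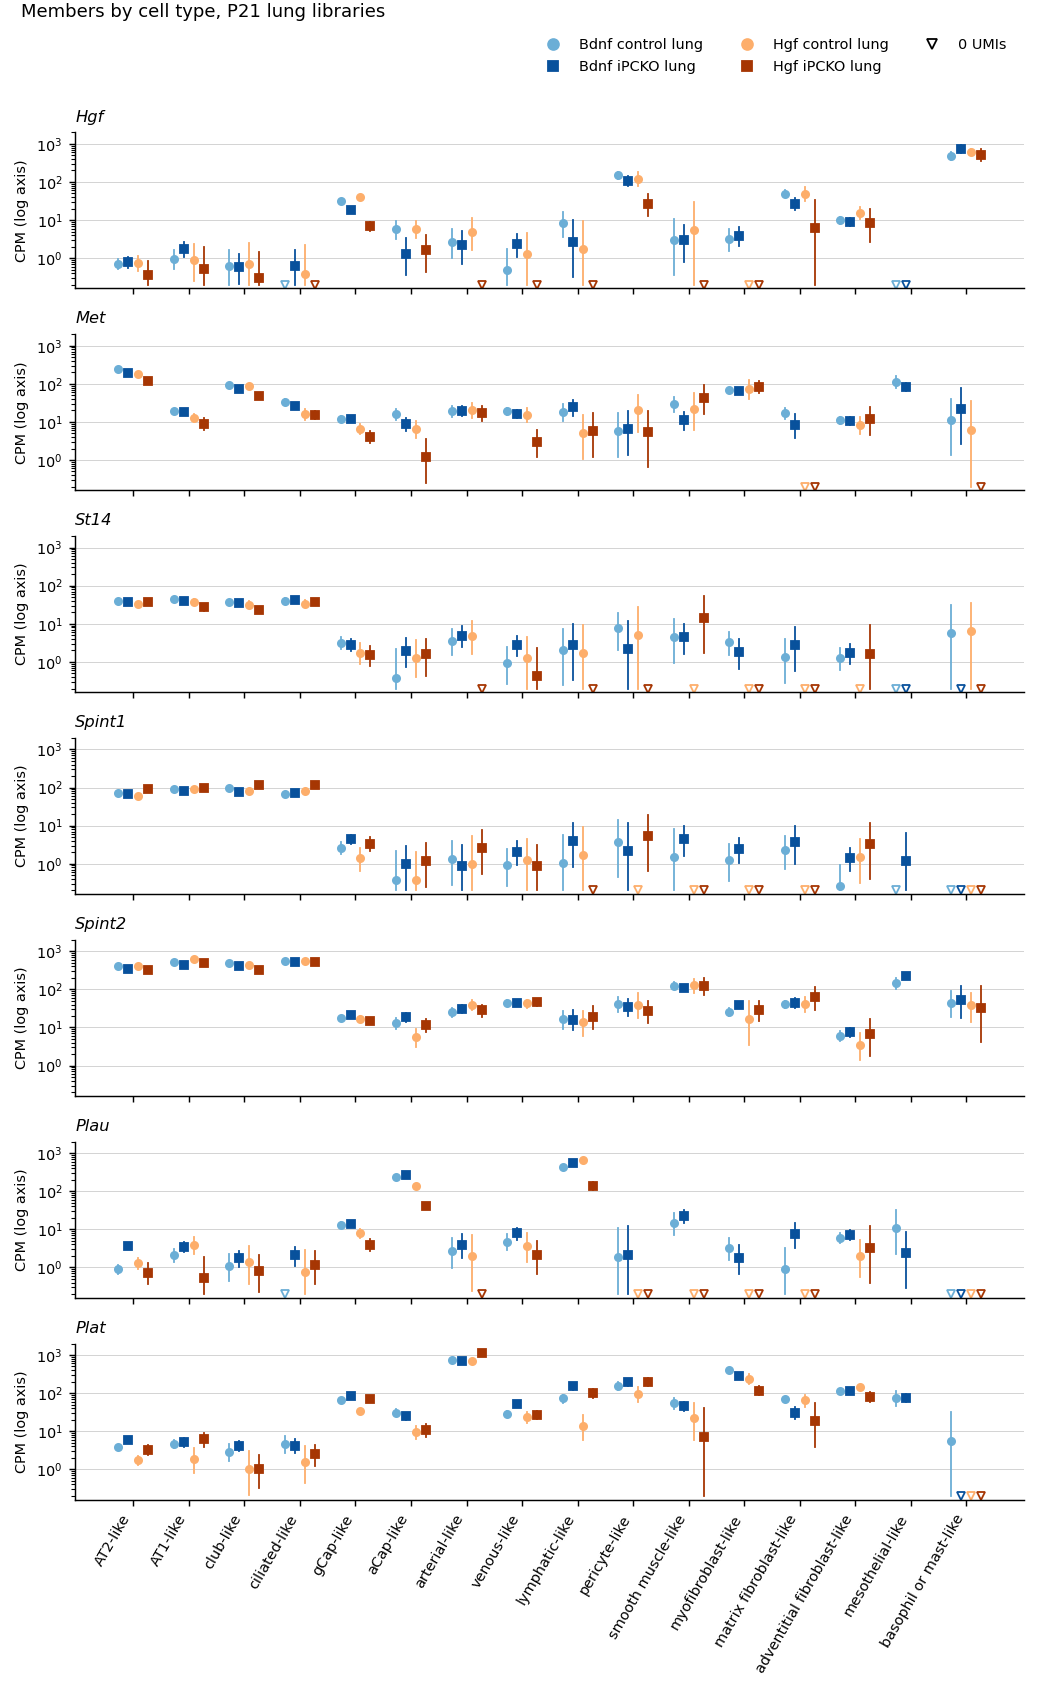
Levels of the 7 genes in CPM on a log axis, by cell type (x axis), in the 4 lung libraries, with exact Poisson 95% bars and open triangles where no UMI was found. St14, Spint1 and Spint2 peak in the epithelial types on the left, Hgf in the basophil or mast-like cells on the right, Plau in lymphatic-like cells and Plat in arterial-like cells.

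Hgf in basophil or mast-like cells, a rare type that survived the depletion, was 483 (386 to 596) CPM in the Bdnf control lung, 745 (581 to 942) in the Bdnf iPCKO lung, 617 (501 to 752) in the Hgf control lung and 517 (351 to 734) in the Hgf iPCKO lung. These values rest on 36, 21, 46 and 16 cells, and 71.4 to 87.5% of them held an Hgf UMI. AT2-like cells, which should lack the factor, had an Hgf UMI in 0.15 to 0.558%, at medians of 3625 to 8581 UMIs per cell against 2782 to 4282 in the basophil or mast-like cells. The levels of the Hgf pair overlapped within counting error, with a log2 ratio of -0.26 (-0.89 to 0.34). After thinning each cell to 1692 UMIs, 73.2% of the control and 73.3% of the mutant cells had an Hgf UMI. None of the 9 pericyte markers had a UMI in these cells in either library of the Hgf pair, and all 7 basophil or mast markers did, with a summed level of 10337 and 7556 CPM. Both lists are those by which the cells were assigned, so this result was largely fixed by the gate. The higher value of the Bdnf iPCKO library, a log2 ratio of 0.63 (0.15 to 1.10), was at -1.19 (-1.63 to -0.75) when cells were assigned by clusters, with 89 and 88 Hgf UMIs. In the 36 and 21 cells of the Bdnf pair assigned by markers, AT2 markers summed to 718 CPM in the control and 10840 in the mutant.

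Pericyte-like cells, the mural cells in which the deletion is driven, had 150 (119 to 187.4) CPM of Hgf in the Bdnf control lung and 106 (78.1 to 140) in the Bdnf iPCKO lung. The Hgf pair had 120 (76.9 to 179) CPM in 107 control cells and 26.6 (12.8 to 49.0) in 233 mutant cells, from 24 and 10 UMIs. The mutant level was thus below the 3 other lungs, whose intervals overlapped each other, and the log2 ratio of the Hgf pair was -2.17 (-3.40 to -1.05). With clusters in place of the marker gate, the ratio was -0.85 (-2 to 0.14). At a matched depth of 951 UMIs a cell, 6.25% (2.33 to 13.1) of the Hgf control and 2.84% (1.05 to 6.09) of the Hgf iPCKO pericyte-like cells had an Hgf UMI, with intervals that overlap. At 1839 UMIs the shares of the Bdnf pair were 15.9 and 17.2%, the reverse order of its levels. The summed pericyte markers were 14545 CPM in the control and 14752 in the mutant cells of the Hgf pair. The 2 control lungs differed by 1.25-fold.

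gCap-like cells held 252 of the 501 Hgf UMIs found in typed cells of the Hgf control lung, more than any other type. Their Hgf level was 31.2 (28.1 to 34.7) CPM in the Bdnf control, 18.1 (15.6 to 20.8) in the Bdnf iPCKO, 39.2 (34.5 to 44.3) in the Hgf control and 6.86 (5.17 to 8.93) in the Hgf iPCKO library. Both mutants lay below both controls, and the Hgf iPCKO library lay lowest. The log2 ratios were -0.79 (-1.05 to -0.53) for the Bdnf pair and -2.51 (-2.96 to -2.09) for the Hgf pair. At a matched depth of 1013 UMIs a cell, 3.69% of the Hgf control and 0.594% of the Hgf iPCKO gCap-like cells had an Hgf UMI, and at 1873 UMIs the shares of the Bdnf pair were 5.16 and 2.94%.

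Pericyte markers in these gCap-like cells were far below their level in pericyte-like cells. In the Hgf control lung their sum was 198 CPM in the 215 gCap-like cells with an Hgf UMI and 89.9 in the 2711 without one, against 14545 in pericyte-like cells. The gCap markers summed to 8452 CPM in the cells with an Hgf UMI and 8290 in those without. Between the libraries they moved with Hgf, from 8304 CPM over all gCap-like cells of the Hgf control to 6151 in the Hgf iPCKO lung, and from 7438 to 6753 in the Bdnf pair. In the Hgf control lung, basophil or mast markers summed to 5.27 CPM in the gCap-like cells with an Hgf UMI and 1.42 in those without. Within the Hgf iPCKO lung the pericyte marker sums were 118 CPM in the 53 cells with and 127 in the 3504 cells without an Hgf UMI. In the Bdnf pair they were 151 with and 90.2 without one in the control, and 266 and 73.6 in the mutant, where the gap was widest. Matrix fibroblast markers, of another type with Hgf, summed to 177 CPM with and 163 without an Hgf UMI in the Hgf control, 330 and 198 in the Hgf iPCKO, 411 and 237 in the Bdnf control and 381 and 228 in the Bdnf iPCKO lung. These groups were chosen for an Hgf UMI and not matched for depth. Barcodes with at most 100 UMIs hold free RNA and no cell. They had 15.5 (12.4 to 19.1) CPM of Hgf in the Hgf control and 7.25 (5.25 to 9.56) in the Hgf iPCKO library. The gCap-like level of the Hgf iPCKO library lay below its free RNA, with intervals that overlap. What these markers and free RNA have to do with the lower gCap level was not tested.

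**Figure D2:**
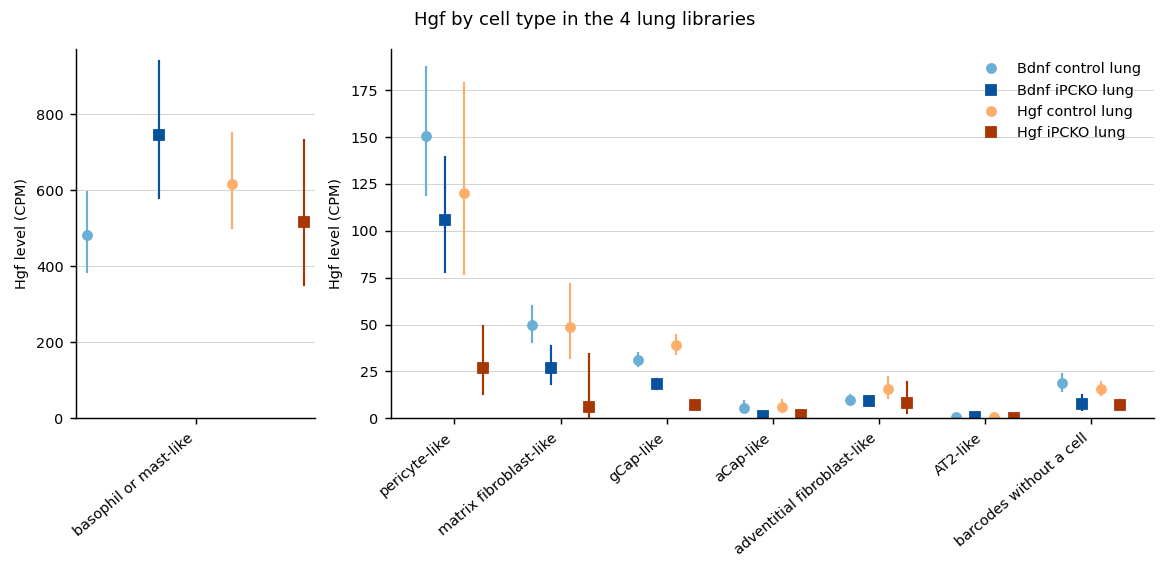
Hgf level in CPM (y axis, from 0) in basophil or mast-like cells (left) and in 6 other cell types and barcodes without a cell (right), for the 4 lung libraries with exact Poisson 95% bars. The Hgf iPCKO library lies at 517 CPM in basophil or mast-like cells, within the bars of its control, and at 26.6 and 6.86 CPM in pericyte-like and gCap-like cells, below its control.

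Values of 3 other types were lower in the Hgf iPCKO lung as well, from few UMIs. Matrix fibroblast-like cells had 48.9 (31.9 to 71.6) CPM in the Hgf control and 6.16 (0.156 to 34.3) in the Hgf iPCKO library, where a single UMI was found in 120 cells. In the Bdnf pair they had 49.7 (40.8 to 59.9) and 27.0 (18.1 to 38.7) CPM, a log2 ratio of -0.88 (-1.53 to -0.28). Matrix fibroblast markers in these cells summed to 16906 and 13169 CPM in the Bdnf pair and to 17895 and 16137 in the Hgf pair, and their part was not tested. aCap-like cells had 5.84 and 1.60 CPM in the Hgf pair, and adventitial fibroblast-like cells 15.5 and 8.29, the latter with a log2 ratio of -0.91 (-2.63 to 0.47). The aCap levels lay below the free RNA of their libraries and the adventitial ones near it. The matrix fibroblast level of the Hgf iPCKO library also lay below its free RNA, with an interval that held it. AT2-like cells had 0.365 to 0.795 CPM in the 4 lungs.

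Met had 250.5 (246 to 255) CPM in AT2-like cells of the Bdnf control and 190 (186 to 194) in the Bdnf iPCKO lung, and 186 (181 to 191) CPM in the Hgf control and 120 (115 to 126) in the Hgf iPCKO lung. Each mutant was below its own control, while the intervals of the Bdnf iPCKO and the Hgf control library overlapped, and the controls themselves differed by 1.35-fold. The log2 ratios were -0.40 (-0.44 to -0.36) and -0.63 (-0.70 to -0.55). AT2 markers moved with this value, from a sum of 128735 CPM in the Hgf control to 92841 in the Hgf iPCKO library and from 112706 to 103463 CPM in the Bdnf pair. Their part in it was not tested.

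Club-like cells, the secretory cells of the airway, came next among the epithelial types with 95.9, 73.5, 89.3 and 47.2 CPM of Met in the same order of libraries. Here too the Hgf iPCKO value was the lowest, with a log2 ratio of -0.92 (-1.18 to -0.66). Alveolar type 1 (AT1)-like cells had 19.4, 18.7, 12.8 and 9.01 CPM and ciliated-like cells 32.9, 26.4, 16 and 15.3 CPM, and the ratios of the Hgf pair in both types had intervals that reached 0. Barcodes without a cell had 201, 132, 175 and 56.0 CPM of Met, so the club, AT1 and ciliated-like levels lay under that of free RNA in all 4 lungs. The AT2-like levels lay above it, most closely in the Hgf control at 186 against 175 CPM. Free RNA was itself lower in both mutants. The part of free RNA in the levels and ratios of these types was not tested.

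Outside these epithelial types, mesothelial-like cells of the Bdnf pair had 115 and 84.4 CPM of Met in 28 and 105 cells, below the free RNA of their libraries. The Hgf pair had 6 and 11 such cells, too few for a ratio. Met in myofibroblast-like cells was 67.1 (58.3 to 76.8), 64.2 (55.9 to 73.5), 74.5 (39.7 to 127) and 83.9 (58.7 to 116) CPM. These intervals all overlapped. The last value lies above the free RNA of its library and the other 3 below that of theirs. In venous-like endothelial cells it was 18.8, 15.8, 15.6 and 2.97 CPM, and the Hgf pair stood at a log2 ratio of -2.40 (-3.85 to -1.15). aCap-like cells had 6.57 and 1.2 CPM in the Hgf pair, from 18 and 3 UMIs, whereas arterial-like cells had 20.6 (12.8 to 31.6) and 17.2 (10.5 to 26.5). All these endothelial levels lay below the free RNA of their libraries, which was itself lower in the mutant, and its part in them was not tested. The shares of endothelial-like cells with a Met UMI were 0.689 and 0.445% at 1066 UMIs a cell, against 34 and 23.5% of AT2-like cells at 2314 UMIs.

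St14, matriptase, was found in all 4 epithelial types. AT2-like cells had 40.5 (38.8 to 42.2), 37.4 (35.7 to 39.1), 32.1 (30.1 to 34.3) and 37.9 (34.8 to 41.1) CPM in the Bdnf control, Bdnf iPCKO, Hgf control and Hgf iPCKO lungs. The spread between the control libraries was as wide as that between control and mutant. AT1-like cells had 45.3, 38.5, 37.7 and 26.8 CPM, the last lower than its control by a log2 ratio of -0.49 (-0.87 to -0.13), which is within 1.5-fold. Club-like cells had 23.3 to 37.8 CPM and ciliated-like cells 33.6 to 42.1 CPM, while endothelial-like cells had 1.17 to 2.73 and barcodes without a cell 25.2 to 30.9.

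Spint1, which encodes HAI-1, was higher in AT2-like cells of the Hgf iPCKO lung, and by less than 1.5-fold in club-like and ciliated-like cells. In AT2-like cells its level was 71.4 (69.2 to 73.7), 68.4 (66.1 to 70.7), 59.1 (56.3 to 62.0) and 90.2 (85.4 to 95.1) CPM. The Hgf iPCKO value stood above the 3 other lungs, and the log2 ratios were 0.61 (0.50 to 0.71) for the Hgf pair and -0.06 (-0.13 to 0.00) for the Bdnf pair. At 2314 UMIs a cell, 13% of the Hgf control and 18.7% of the Hgf iPCKO AT2-like cells had a Spint1 UMI, against 0.156 and 0.291% of endothelial-like cells at 1066 UMIs. Club-like cells had 79.9 (69.9 to 90.9) and 114 (105 to 124) CPM in the Hgf pair and ciliated-like cells 82.0 (71.3 to 93.9) and 118 (108 to 129), with log2 ratios of 0.51 (0.29 to 0.74) and 0.53 (0.29 to 0.76). AT1-like cells had 82.3 to 94.6 CPM in the 4 libraries. In endothelial-like cells Spint1 was past 1.5-fold higher in both mutants. The Bdnf pair had 1.85 and 2.98 CPM there, a log2 ratio of 0.69 (0.12 to 1.27). The part of free RNA in the Spint1 values was not tested. No Spint1 UMI was found in basophil or mast-like cells of any lung, which allows 16.8 to 50.0 CPM at the floor of 3 UMIs.

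Spint2, which encodes HAI-2, was lower by less than 1.5-fold in AT2-like and club-like cells of both mutants. AT2-like cells had 409 (403 to 414) and 333 (328 to 338) CPM in the Bdnf pair and 419 (411 to 426) and 327 (318 to 336) in the Hgf pair, where each mutant lay below both controls. The log2 ratios were -0.30 (-0.33 to -0.27) and -0.36 (-0.41 to -0.31), inside the limit of 1.5-fold. AT2 markers in these cells summed to 112706 and 103463 CPM in the Bdnf pair and to 128735 and 92841 in the Hgf pair. Their part in the Spint2 values was not tested. AT1-like cells had 524, 443, 628 and 485 CPM and club-like cells 478, 407, 442 and 332. In ciliated-like cells the 4 values were 570, 531, 546 and 534 CPM, and the log2 ratio of the Hgf pair was -0.03 (-0.13 to 0.07). Smooth muscle-like cells had 110 to 126 CPM and pericyte-like cells 26.6 to 41.9, below the 167 to 222 CPM of barcodes without a cell. Mesothelial-like cells of the Bdnf pair had 145 and 222 CPM of Spint2, a log2 ratio of 0.62 (0.11 to 1.15). The part of free RNA in these was not tested.

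Plau, the urokinase-type activator, was found in 2 endothelial types. Lymphatic-like cells had 423 (383 to 465), 567 (514 to 623), 680 (615 to 750) and 141 (110 to 178) CPM, from 416, 420, 401 and 72 UMIs, and 67.0, 65.5, 70.8 and 25.5% of them held a Plau UMI at medians of 7359, 4884, 4032 and 2895 UMIs a cell. At matched depth the shares were 46.7 and 50.5% in the Bdnf pair (2229 UMIs) and 44.8 and 13.8% in the Hgf pair (1038 UMIs). The Hgf iPCKO library was the lowest of the 4 and the Hgf control the highest. Their log2 ratio was -2.27 (-2.65 to -1.91), while that of the Bdnf pair was 0.42 (0.22 to 0.62), and the controls differed by 1.61-fold. aCap-like cells, the large capillary cells of gas exchange, had 241 (222 to 260), 259 (241 to 278), 137 (124 to 152) and 41.5 (33.9 to 50.3) CPM, with a Plau UMI in 58.3, 47.4, 29.3 and 7.71% of cells. At matched depth these shares were 36.9 and 36.0% in the Bdnf pair (2016 UMIs) and 14.5 and 4.79% in the Hgf pair (1217 UMIs), against 0.256 and 0.0832% of AT2-like cells of the Hgf pair at 2314 UMIs. The log2 ratio of the Hgf pair was -1.73 (-2.05 to -1.41), and the controls differed by 1.75-fold.

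The markers of both types were measured beside these values. The 7 lymphatic markers summed to 32710 and 23541 CPM in lymphatic-like cells of the Hgf pair and to 31365 and 23320 in the Bdnf pair. The 7 aCap markers summed to 10779 and 9809 CPM in aCap-like cells of the Hgf pair. aCap-like cells were 18.1% of endothelial-like cells in the Hgf control and 18.6% in the Hgf iPCKO lung, and lymphatic-like cells 2.77 and 2.24%. The part of these markers and shares in the Plau values was not tested. Across all endothelial-like cells Plau was 65.6 (61.3 to 70.1) and 14.7 (12.9 to 16.7) CPM, a log2 ratio of -2.16 (-2.37 to -1.95). gCap-like cells had 7.78 and 3.99 CPM, but 19 and 60 UMIs and a log2 ratio of 0.89 (0.13 to 1.72) when clusters replaced the gate. Venous-like cells had 2.12 to 7.80 CPM and arterial-like cells 0 to 3.91 in the 4 lungs.

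Among cell types with at least 20 Plau UMIs in the Bdnf pair, AT2-like cells had the largest log2 ratio, at a low level, 0.895 (0.662 to 1.18) CPM in the control and 3.63 (3.12 to 4.21) in the mutant, a log2 ratio of 2.02 (1.56 to 2.51). The UMIs came from 40 of 6098 control and 97 of 7413 mutant cells. In those cells aCap markers summed to 656 and 693 CPM, against 31.3 and 49.4 in AT2-like cells without a Plau UMI. Lymphatic markers summed to 533 and 1779 CPM against 33.4 and 55.8. These sums are over barcodes chosen for a Plau UMI and not matched for depth. Their part in the Plau value was not tested, nor was that of free RNA.

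**Figure D3:**
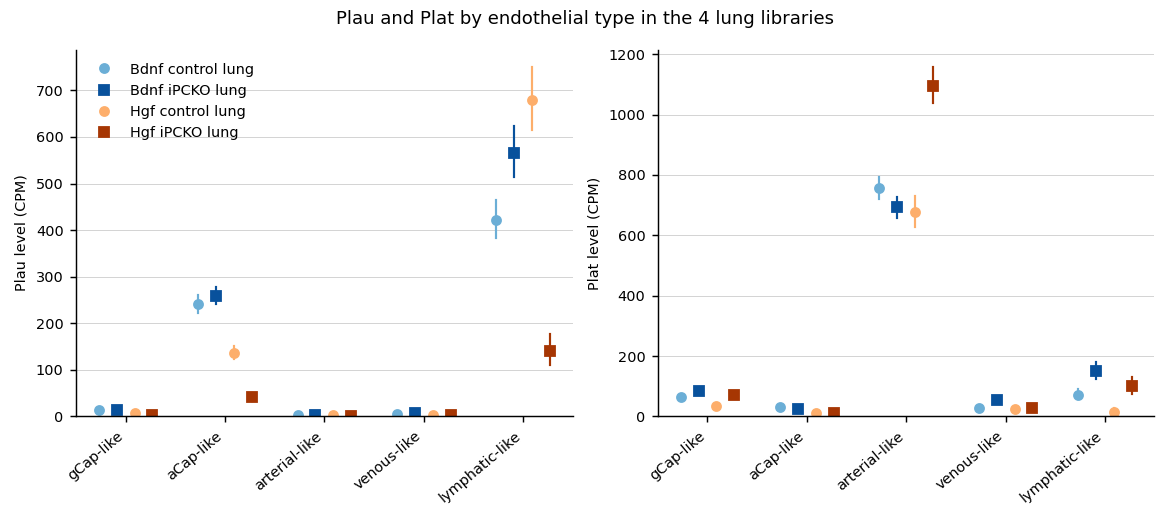
Plau (left) and Plat (right) levels in CPM (y axes, from 0) in 5 endothelial types of the 4 lung libraries, with exact Poisson 95% bars. Plau in lymphatic-like cells is 680 CPM in the Hgf control and 141 in the Hgf iPCKO library, and Plat in arterial-like cells is 678 and 1096 CPM.

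Plat, the tissue-type activator, had its highest lung level in arterial-like cells, at 756 (720 to 793), 693 (659 to 727), 678 (629 to 731) and 1096 (1037 to 1158) CPM. The first 3 lungs lay close together and the Hgf iPCKO lung stood above them, with a log2 ratio of 0.69 (0.56 to 0.83) to its control. Arterial markers in these cells summed to 3885 and 3444 CPM in the Hgf pair, and lymphatic markers to 2499 and 9949. The part of the latter in the Plat value was not tested, and Plat in lymphatic-like cells of these libraries was 13.6 (5.86 to 26.7) and 99.9 (74.4 to 131) CPM. gCap-like cells had 65.1, 85.3, 33.7 and 70.1 CPM of Plat, the Hgf pair at a log2 ratio of 1.06 (0.83 to 1.29). Barcodes without a cell had 47.6, 53.6, 39.0 and 57.2 CPM of Plat, so the gCap and lymphatic-like values of the Hgf control lay below free RNA, and its part in these ratios was not tested. The 2 control lungs differed by 1.93-fold in gCap-like and by 5.31-fold in lymphatic-like cells, and the Bdnf control lay at or near the Hgf iPCKO values, with 65.1 CPM in gCap-like and 72.1 (56.3 to 91.0) in lymphatic-like cells.

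Myofibroblast-like cells, contractile fibroblasts of the alveolar septa, had 415 (392 to 438), 275 (257 to 293), 241 (174 to 326) and 116 (86.5 to 154) CPM of Plat. Each mutant was below its control, with log2 ratios of -0.59 (-0.72 to -0.47) and -1.05 (-1.67 to -0.42). In matrix fibroblast-like cells, whose own markers were lower in both mutants as given above, each mutant was also below its control, with 68.8, 29.7, 63.9 and 18.5 CPM, and adventitial fibroblast-like cells had 114, 110, 142 and 77.9 CPM. Pericyte-like cells went the other way in the Hgf pair, from 95 (57.2 to 148) to 194 (152 to 245) CPM, but the Bdnf pair had 154 and 194 CPM there. Epithelial types had 1.02 to 6.10 CPM of Plat, below free RNA.

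**Figure D4:**
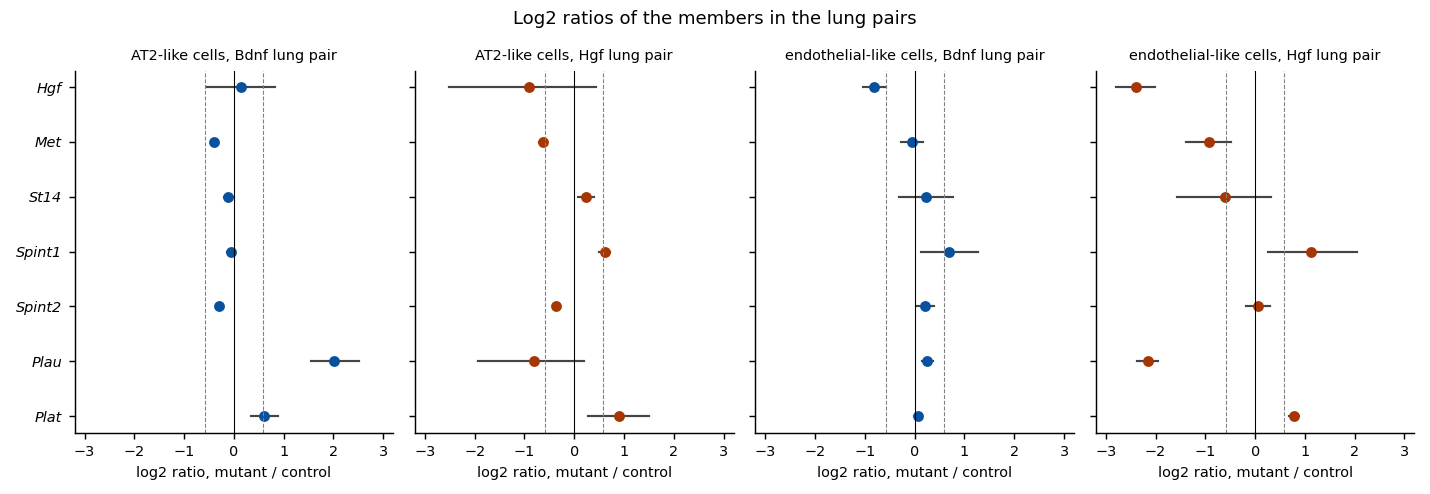
Log2 ratio of mutant over control (x axis) for the 7 genes (y axis) in AT2-like and endothelial-like cells of the Bdnf and Hgf lung pairs, with conditional exact 95% bars and dashed lines at 1.5-fold. In AT2-like cells of the Hgf pair Met lies at -0.63 and Spint1 at 0.61, and in endothelial-like cells Hgf lies at -2.39 and Plau at -2.16.

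In the Hgf pair, 4 of the 7 genes were lower (Hgf, Met, St14 and Plau) and 2 higher (Spint1 and Plat) in endothelial-like cells, where 17.3% of 17214 genes were lower and 14.6% higher. In AT2-like cells 3 were lower (Hgf, Met and Plau) and 2 higher (Spint1 and Plat), against 17% and 16.4% of 17033 genes. The intervals of Hgf and Plau there, like that of St14 in endothelial-like cells, reached 0. The Plau ratio in AT2-like cells changed sign when cells were assigned by clusters. Over all cell types, 14 of 39 combinations of gene and type were lower and 6 higher, against 17.4% and 17.5% of all combinations. In the Bdnf pair 6 of 57 were lower and 8 higher, against 7.7% and 11.1%. When the 2 control lungs were compared with each other, 17 of 49 combinations lay past the same limit. In the cell types of these combinations, 28.9 to 47.1% of all genes did so. A ratio past 1.5-fold thus also occurs between control libraries.

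The other genes of the pathway were read from 5 lists of 31 genes. In AT2-like cells of the Hgf pair 24 had enough UMIs, of which 4 were lower and 4 higher, against 17% and 16.4% of 17033 genes. The median log2 ratio of the 24 was 0.03, where all genes had a median of 0.00. Hepsin (Hpn), another membrane protease that cleaves HGF, was 24.7 CPM in the control and 42.1 in the mutant, a log2 ratio of 0.77 (0.61 to 0.93). Cd44, a membrane glycoprotein that can act as a MET co-receptor, was 152 and 75.8 CPM, at -1 (-1.10 to -0.91). Lrig1, which lowers receptor tyrosine kinases including MET, was 6.65 and 14.8 CPM. Adam17, a sheddase, was 99.7 and 55.5 CPM, and the MET adaptor Gab1 was 36.6 and 55.9. Hgfac, the HGF activator made mainly by liver, was at 3.11 and 1.93 CPM, and the genes of the related ligand and receptor, Mst1 and Mst1r, had no UMI in these cells.

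In AT2-like cells of the Bdnf pair none of the 7 members was lower and 2 were higher (Plau and Plat), and 25 list genes had enough UMIs, 1 lower and 4 higher with a median of 0.05, against 4.75% and 12.9% of 21209 genes and a median of 0.04. Cd44 was again lower, 140 CPM in the control and 87.6 in the mutant, at -0.68 (-0.73 to -0.62). The urokinase receptor Plaur was 3.22 and 7.89 CPM and had a higher level in aCap-like cells, at 452 CPM in that control. Serpini1, the inhibitor neuroserpin, was 2.58 and 4.16 CPM.

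Endothelial-like cells had 25 list genes with enough UMIs in each lung pair. In the Hgf pair 3 were lower and 5 higher, where 17.3% and 14.6% of 17214 genes were. The median of these list genes was -0.12, against -0.06 over all genes. Against the same shares, 4 of the 6 other activating proteases with enough UMIs were higher (Hgfac, Hpn, Prss8 and Tmprss2) and none lower, with a median of 0.70. The levels were 0.970 to 6.09 CPM, and the intervals of Hgfac and Hpn reached 0. The part of free RNA in these levels was not tested. Adam17 was 106 and 59.5 CPM there. Serpine2, the inhibitor protease nexin-1, was 23.7 and 58.3 CPM, at 1.30 (1.12 to 1.49). Itgb4, an integrin subunit that associates with MET, was 24.9 and 14.1 CPM. The epithelial proteases Prss8 and Tmprss2 were 1.49 to 7.39 CPM in these cells of the 4 lungs and 24.6 to 284 in epithelial types. These genes were named after their values in endothelial-like cells were seen. In the Bdnf pair 1 list gene was lower and 6 higher, and of the 7 members 1 was lower (Hgf) and 1 higher (Spint1), where 7.3% and 8.45% of 19524 genes were, with a median of 0.09 against -0.01.

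Pericyte-like cells of the lung gave fewer genes. Of the members Hgf and Plat had enough UMIs in the Hgf pair, 1 lower and 1 higher, and 14 list genes did, 4 lower and 2 higher with a median of 0.13 against 0.05, where 16.5% and 21.2% of 5441 genes lay past the limits. Serpine2 was 190 and 312 CPM, at 0.71 (0.17 to 1.28), Plxnb1, a plexin that pairs with MET, 155 and 79.9, and the adaptor Grb2 95 and 163. In the Bdnf pair none of 15 list genes and none of 3 members lay past the limit in either direction, where 11.4% and 11.6% of 7321 genes did, with a list median of 0.22 against 0.01. Serpinb2, the inhibitor PAI-2, was found in basophil or mast-like cells at 95.8 to 183 CPM and at no more than 0.0715 CPM in the other types with at least 30 cells in a library.

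Profiles over 15 cell types of each control lung were compared by Pearson's r of log2(CPM + 1), as a description. The genes most like Hgf were Gpsm3, Gab2 and Esyt1, with mean r of 0.86, 0.84 and 0.82. Ahcyl2, Gm32391 and Me1 were nearest to Met at 0.81, 0.77 and 0.77. St14 was nearest to Cnksr1, Rassf7 and Prr15l at 0.93, 0.93 and 0.91, and Spint1 to Grb7, Ripk4 and Slc7a4 at 0.97, 0.97 and 0.96. For Spint2 they were Llgl2, Zfp612 and Krt18 at 0.90, 0.90 and 0.89, for Plau Ackr2, Agfg1 and Flt4 at 0.84, 0.83 and 0.83, and for Plat Smc1a, Lepr and Galnt15 at 0.90, 0.88 and 0.88. Among the members themselves Spint1 and St14 were the closest pair at 0.90, and Hgf and Met had -0.58. The points of a profile share 1 library and its free RNA.

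In the cortex, Hgf was an astrocyte transcript, Spint1 was found in microglia-like cells, Plau in microglia and border macrophage-like cells, Met in excitatory neuron-like cells and Plat in pericyte and endothelial-like cells. Spint2, among types with at least 30 cells, was highest in excitatory neuron-like cells of the control and in vascular smooth muscle-like cells of the mutant.

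**Figure D5:**
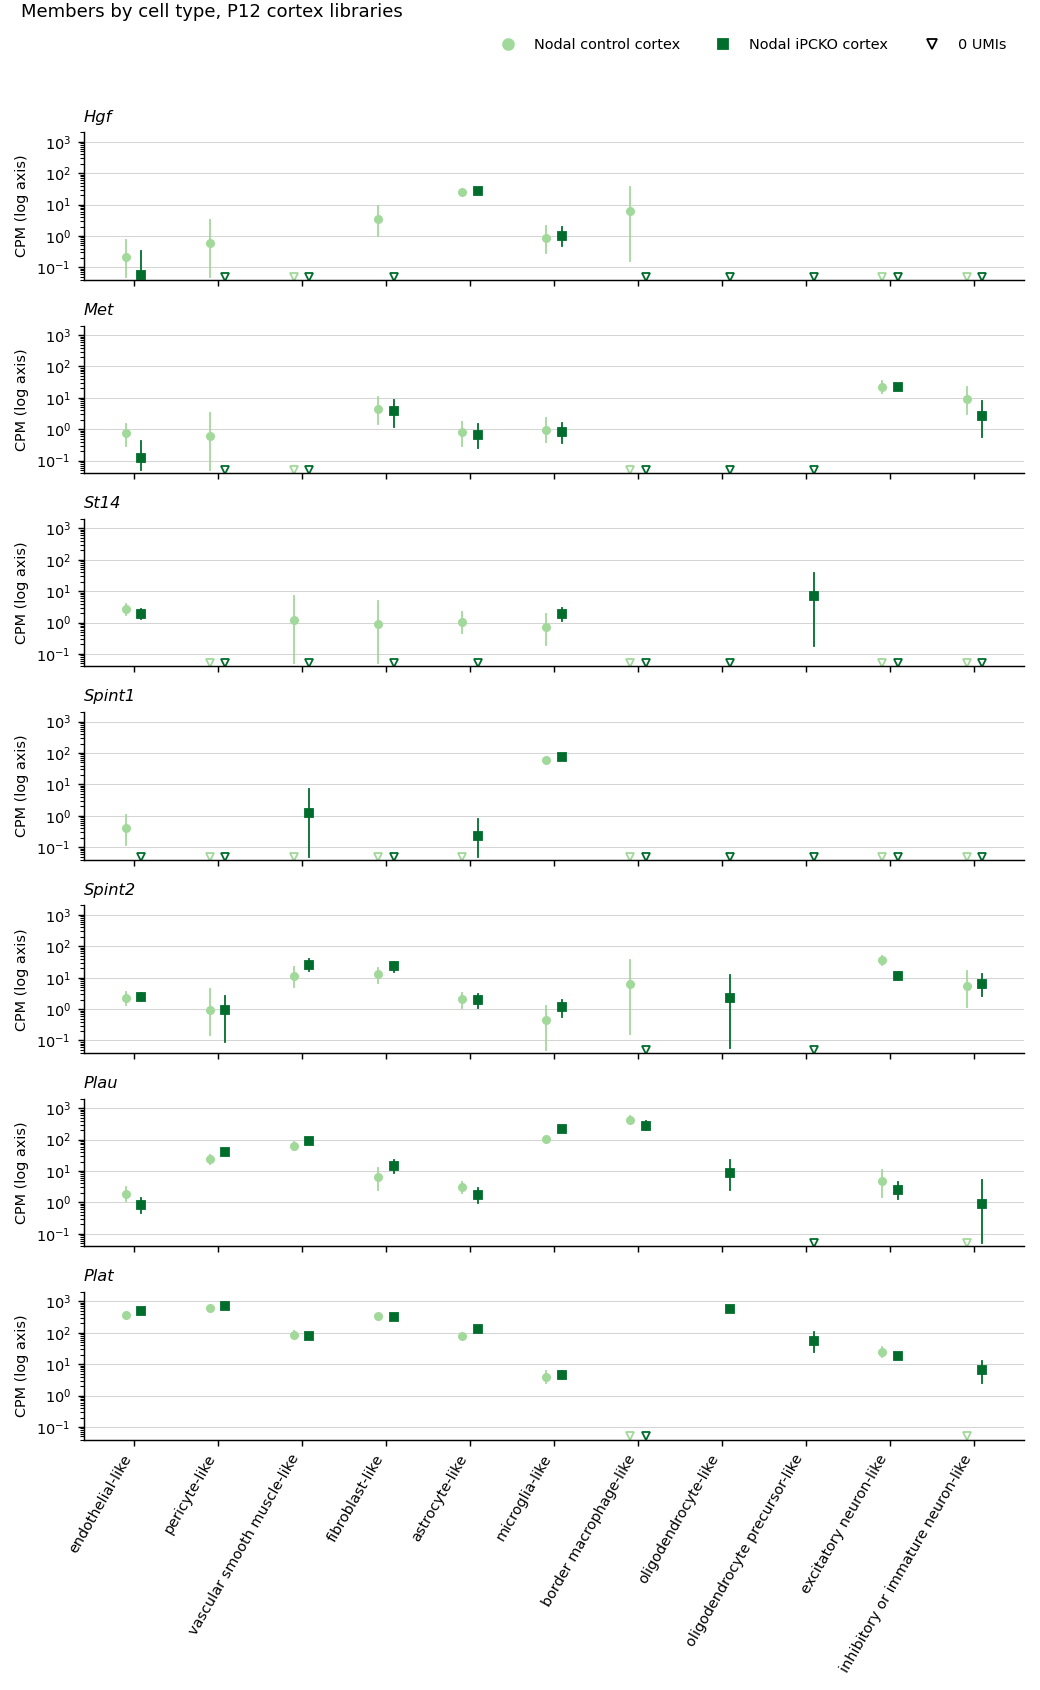
Levels of the 7 genes in CPM on a log axis, by cell type (x axis), in the 2 cortex libraries, with exact Poisson 95% bars and open triangles where no UMI was found. Hgf peaks in astrocyte-like cells at 26 and 26.6 CPM and is at or near 0 in pericyte-like cells, and Plau in microglia-like cells is 105 CPM in the control and 210 in the mutant.

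Astrocyte-like cells had 26 (22.4 to 29.9) CPM of Hgf in the Nodal control and 26.6 (23.4 to 30.3) in the Nodal iPCKO cortex, from 194 and 235 UMIs. The 2 libraries did not differ beyond counting error, with a log2 ratio of 0.04 (-0.24 to 0.32), and 20.8 and 22.4% of these cells had an Hgf UMI. Pericyte-like cells had a single Hgf UMI among 283 control cells and 0 among 429 mutant cells, which allows up to 1.12 CPM in the latter. Microglia-like cells had 0.894 and 1.03 CPM and endothelial-like cells 0.211 and 0.0589. Barcodes without a cell had 8.18 and 3.21 CPM, so astrocyte-like cells were the type above free RNA.

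Met had 22.4 (14.3 to 33.3) and 22.9 (18.6 to 27.9) CPM in excitatory neuron-like cells, of which there were 36 and 146. The other types with at least 30 cells in a library had at most 4.45 CPM, apart from 9.23 in the 26 inhibitory or immature neuron-like cells of the control. St14 was at most 2.74 CPM in endothelial-like cells and 1.85 in microglia-like cells.

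Spint1 in the cortex came almost wholly from microglia-like cells, which held 98.8 and 99.6% of its UMIs in typed cells. Their level was 60.2 (54.0 to 67.0) CPM in the control and 73.2 (68.0 to 78.8) in the mutant, a log2 ratio of 0.28 (0.09 to 0.47). The share with a UMI was 18.6 and 22.4% after thinning to 3750 UMIs, with intervals of 16 to 21.5 and 20.1 to 24.8% that overlap. Endothelial-like cells had 0.422 CPM in the control and 0 in the mutant. The 24 and 22 border macrophage-like cells had no Spint1 UMI, which allows 19.5 and 20.9 CPM.

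Plau in microglia-like cells was 105 (96.4 to 114) CPM in the Nodal control and 210 (201 to 219) in the Nodal iPCKO cortex, from 586 and 2047 UMIs. The log2 ratio was 1 (0.87 to 1.14), and 23.4 and 32.1% of the cells had a Plau UMI after thinning to 3750 UMIs, or 32.5 and 42.0% unthinned. Border macrophage-like cells had the highest level, 429 (331 to 545) and 278 (199 to 379) CPM in 24 and 22 cells, and went in the other direction. Border macrophage markers in microglia-like cells summed to 115 and 84.6 CPM and microglia markers to 26768 and 22098. Their part in the Plau value of microglia-like cells was not tested. The urokinase receptor Plaur was higher in the same cells, 41.1 CPM in the control and 143 in the mutant, at 1.80 (1.60 to 2.01), and Cd44 was at 6.52 and 16.1 CPM. Of 4 members with enough UMIs in microglia-like cells 2 were higher (Plau and St14), and of the lists 18 genes had enough, 2 lower and 2 higher with a median of -0.17 against -0.06, where 11.3% and 8.14% of 14209 genes lay past the limits. St14 rested on 4 and 18 UMIs. Its shares after thinning to 3750 UMIs were 0.25% (0.03 to 0.90) and 0.71% (0.32 to 1.34), with intervals that overlap.

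Plau UMIs were also found in mural cells of the cortex. Pericyte-like cells had 23.5 (16.7 to 32.1) and 39.1 (32.0 to 47.3) CPM, a log2 ratio of 0.74 (0.19 to 1.30). Microglia markers in these pericyte-like cells summed to 113 and 89.7 CPM. Vascular smooth muscle-like cells had 62.0 (46.0 to 81.8) and 92.7 (72.8 to 116) CPM, with a ratio inside 1.5-fold. Both pericyte intervals held the free-RNA level of their library, given below, and the smooth muscle levels lay above it. The part of free RNA, and of RNA from microglia-like cells, in these values was not tested. In lung pericyte-like cells Plau was at most 2.15 CPM. In cortex pericyte-like cells Plau was the 1 of 2 members past the limit, and of the list genes 19 had enough UMIs, none lower and 4 higher with a median of 0.16 against 0.01, where 7.08% and 7.94% of 11363 genes lay past the limits. Among them were Plaur at 5.42 and 14.9 CPM, Cd44 at 16.9 and 35.0 and the integrin subunit Itga6 at 7.22 and 17.9.

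Plat had 618 (580 to 657) and 738 (706 to 771) CPM in pericyte-like cells and 382 (370 to 395) and 511 (501 to 522) in endothelial-like cells, log2 ratios of 0.26 and 0.42. Astrocyte-like cells had 78.6 (72.4 to 85.2) and 129 (121 to 137) CPM, a log2 ratio of 0.71 (0.57 to 0.86). In those cells endothelial markers summed to 68.6 and 56.0 CPM and pericyte markers to 71.3 and 76.5. Their part in the astrocyte Plat value was not tested. Barcodes without a cell had 280 and 349 CPM of Plat, above the astrocyte level in both libraries and above the fibroblast level in the mutant. Free RNA was thus higher in the mutant, as the pericyte and endothelial levels were, and its part in them was not tested. Fibroblast-like cells had 338 and 310 CPM and microglia-like cells 3.93 and 4.51.

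Spint2 in excitatory neuron-like cells was 36.3 (25.8 to 49.7) CPM in the control and 11.5 (8.47 to 15.1) in the mutant, a log2 ratio of -1.67 (-2.30 to -1.02). The excitatory neuron markers summed to 10030 and 10476 CPM in the 36 and 146 cells. Barcodes without a cell had 3.01 and 4.52 CPM of Spint2, and the 6 choroid plexus-like cells of the control, a type with no cell in the mutant, had 537. The part of these in the neuron value was not tested. Vascular smooth muscle-like cells had 11.2 (5.11 to 21.2) and 26.3 (16.3 to 40.2) CPM of Spint2, and fibroblast-like cells 12.8 and 23.1. Over the cortex, 4 of 24 combinations of gene and cell type were lower in the mutant and 7 higher, against 9.87% and 8.38% of all combinations, and 6 of the 11 were of Plau. Those 6 were higher in microglia, pericyte and fibroblast-like cells and lower in border macrophage, endothelial and astrocyte-like cells. The endothelial levels were 1.90 and 0.825 CPM, the astrocyte levels 3.08 and 1.70 and the fibroblast levels 6.23 and 14.1, all below the 22.0 and 34.5 CPM of free RNA, and the intervals of the astrocyte and fibroblast log2 ratios included 0. The pericyte interval of each library, given above, held its free-RNA value. The part of free RNA in these calls was not tested.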

How the data were processed

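Lung cells at P21 and cortex cells at P12 were captured on the BD Rhapsody platform, about 40000 cells prepared per library. The deposited matrices hold estimated counts: the authors aligned reads with STAR 2.7.10a to GRCm39 and shared multi-mapped reads among genes, so 8.50 to 9.95% of entries are fractional. Their later filters, Scrublet scores and 2 pseudoreplicates per condition were not used.

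Barcodes with at least 1500 UMIs (700 in the Hgf pair) were kept and gated in Python 3.11.15 (numpy 2.4.6, scipy 1.17.1, pandas 2.3.3) by mean marker scores, with a lead over the next lineage. Barcodes close to 2 lineages, 46 to 2432 per library, were left out as possible doublets, and no doublet caller was run. The marker sums given above use the same lists as this gate. The UMIs of a gene were added up over the cells of a type in each library and scaled to the total of those cells. Intervals are exact Poisson for levels, Clopper-Pearson for shares and conditional exact for ratios, at 95%, and PCR and capture error lie outside them. A count of 0 was read against a floor of 3 UMIs. Ratios needed 15 cells in both libraries. The ratio intervals were tested on simulated Poisson sums, which hold no spread between libraries, for genes with a higher minimum of UMIs than used here. Calls in that test also needed an interval off 0. The rule by which members were counted as higher or lower, which has no such condition, was not tested. The marker gate and the thinning were not part of that test.

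The members, the marker and pathway lists and the limits were chosen with earlier results of these data known, and the gate's scoring rule was set after marker levels and cell numbers were seen but before the members were read. Named were the 7 members, list genes past 1.5-fold with an interval off 0 in the leading cell type of Hgf or Met, list genes with a leading level in a cell type, and up to 3 genes with the most similar profile. List genes named in endothelial, pericyte and microglia-like cells were chosen after their values were seen. Alternatives were a doubled minimum, a stricter gate, Leiden clusters, a filter on mitochondrial share and high totals, median-of-ratios scaling and dropped fractions. Sequences are from GRCm39 with GENCODE annotation. The deleted exons are not named in the sources used here. The values of 1 list gene are not reported here.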

Additional observations from a re-analysis of the deposited data

How the results depend on the processing

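Of the log2 ratios recomputed under the alternatives, 1144 moved by less than their counting interval, 37 moved further and 6 changed sign. All 6 changed sign when cells were assigned by Leiden clusters: Plau in AT1-like cells of the Bdnf pair to -0.15, Hgf in basophil or mast-like cells of the Bdnf pair to -1.19, Plau in AT2-like cells of the Hgf pair to 0.15, Plau in gCap-like cells of the Hgf pair to 0.89, and over all immune-like cells of the Hgf pair Hgf to 0.035 and Spint2 to -0.44. Under the same alternative the ratio of Hgf in pericyte-like cells of the Hgf pair was -0.85, 11 combinations in place of 6 were lower in the Bdnf pair, and 3 levels in a leading cell type moved, of Plat, Spint2 and Plau. The cause was not tested. Of the 37 ratios that moved, 26 did so under clusters, 8 under the doubled minimum, 2 under median-of-ratios scaling and 1 under the filter on mitochondrial share and high totals. The 8 were of the Bdnf pair, of Plau in aCap and endothelial-like cells, Plat in myofibroblast-like and all mesenchymal-like cells, and Met, Spint2, Plau and Plat over all typed cells. The stricter gate and the dropped fractions moved none. No paired analysis was possible because each condition is 1 library, and for the same reason no replicate could be left out. The pericyte ratio of Hgf rests on 24 and 10 UMIs, so depth limits it.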
